A study of Mus musculus with 21 samples.

Results

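The MHC class II pathway was followed through 6 genes in the brains of mice that express poly-GA, the glycine-alanine dipeptide repeat protein of C9orf72 ALS. The 6 genes were chosen by name: Cd74, H2-Aa, H2-Ab1, H2-Eb1, H2-DMa and Ciita. They stand in the count table as ENSMUSG00000024610, ENSMUSG00000036594, ENSMUSG00000073421, ENSMUSG00000060586, ENSMUSG00000037649 and ENSMUSG00000022504, 6 of its 64361 genes, and 5 of them had enough counts to be tested. Bulk RNA had been measured with prime-seq, an early-barcoding method that sequences the 3' ends of mRNA.

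GA-Camk2a mice carry a floxed GFP-tagged poly-GA transgene that is switched on by Camk2a-Cre, a driver active in excitatory neurons, so that poly-GA is made in neurons and not in the cells that present antigen. The control mice are labelled only as ctrl, and the alleles they carry are not given in the labels. All mice were sacrificed at 30 to 40 weeks of age, when the transgenic mice were near or at their humane endpoint, and the GA-Camk2a animals came from a pair of litters. There were 5 libraries of control cortex, 6 of GA-Camk2a cortex, 4 of control hippocampus and 6 of GA-Camk2a hippocampus, from 11 mice of which 10 gave both tissues. The lines were kept on a C57BL/6J background. Mice are named here by the numbers of the labels: controls 11, 20, 31, 37 and 38 (cortex only), and GA-Camk2a mice 16, 23, 30, 34, 35 and 41.

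MHC class II molecules present peptides from the endosomal pathway to CD4+ T cells. In C57BL/6 mice the surface molecule is made of an alpha chain from H2-Aa and a beta chain from H2-Ab1, and H2-Eb1 encodes a beta chain whose alpha partner, H2-Ea, is not functional in that strain. Cd74 encodes the invariant chain, which escorts the new molecule to endosomes and fills its groove. H2-DM, of which H2-DMa encodes the alpha chain, then helps to exchange the last piece of the invariant chain for a peptide, and Ciita encodes the transactivator that switches the class II genes on. In healthy brain these transcripts are scarce, and in disease they are known from activated microglia and from macrophages at the borders of the brain. In bulk tissue, fewer cells of a type and less RNA per cell cannot be told apart.

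Total counts ranged from 1048201 to 5888102 per library. The 5 hippocampal marker genes were all higher in hippocampus than in cortex in both genotypes, whereas among 4 cortical markers Cux2 and Tbr1 were lower there and Fezf2 was higher. Some libraries stood apart, most of them from hippocampus. In the hippocampus libraries of control 11, GA-Camk2a 16 and GA-Camk2a 30, Rorb, a gene of layer 4 neurons and thalamus, reached 1455 to 5303 CPM (counts scaled to a library total of 1000000), compared with 86.6 to 165 CPM in the other 7. The hippocampus library of GA-Camk2a 41 held 558 CPM of bone and marrow transcripts, compared with at most 13.4 CPM in the other 20 libraries. Ttr, the main transcript of choroid plexus epithelium, ranged from 1786 to 32490 CPM in control and from 1813 to 55190 CPM in GA-Camk2a hippocampus. The highest value was in mouse 16, which also had the highest hippocampal levels of Cd74, H2-Aa and H2-Eb1. Mouse 30, next in Ttr at 49410 CPM, had the lowest levels of Cd74, H2-Aa and H2-Ab1 in GA-Camk2a hippocampus. In cortex, mouse 34 had 8114 CPM of Ttr, compared with 1573 to 2697 CPM in the other 10 libraries, and mouse 41 had 612 CPM of Rorb, compared with 133 to 214 CPM. The GFP sequence had 0 to 4 counts in every library, too few to check the transgene.

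In cortex, 4 of the 5 tested genes rose in GA-Camk2a mice: the invariant chain, the alpha chain and both beta chains increased between 4.06-fold and 6.40-fold. Across all 13058 genes tested, 6.35% were higher and 6.17% lower at the same threshold, an adjusted p under 0.05 in edgeR's quasi-likelihood test. H2-DMa did not pass and Ciita had 0 to 4 counts per library. The median log2 fold change was 2.36 over the 5 tested genes and -0.01 over all genes tested.

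Cd74, the escort of the new class II molecule, had the most counts of the 6 genes. In control cortex it was at 49.6, 34.5, 25.6, 30.9 and 38.2 CPM in mice 11, 20, 31, 37 and 38. In GA-Camk2a cortex it ranged from 120 CPM (mouse 41) over a median of 139 to 343 CPM (mouse 23). The lowest GA-Camk2a library was more than 2-fold above the highest control, and mice 16 and 23 stood above the other 4 transgenic mice. The group means were 35.8 ± 9.02 CPM (SD, n = 5) and 192 ± 95.7 CPM (SD, n = 6). On the log2 scale the difference was 2.46 ± 0.27 (SE; adjusted p = 1.43e-06 in edgeR, as for all fold changes below unless another test is named).

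The alpha chain gene H2-Aa also separated the genotypes in cortex. Control cortex gave 7.63, 11.8, 5.86, 5.57 and 6.10 CPM in the order of mice used above, from 8 to 22 counts. GA-Camk2a cortex gave 22.4 to 66.0 CPM with a median of 24.8, so that every transgenic library lay above every control. H2-Aa thus differed by 2.36 ± 0.32 log2 units (SE; edgeR, adjusted p = 2.27e-05).

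H2-Ab1, the partner of H2-Aa, had the largest change of the 5 tested genes in cortex. It was at 4.77, 7.27, 4.03, 4.05 and 5.26 CPM in control cortex and at 19.2 to 49.9 CPM in GA-Camk2a cortex, with a median of 27.8. No transgenic library overlapped with the controls. Its difference on the log2 scale was 2.68 ± 0.26 (SE; edgeR, adjusted p = 3.10e-07).

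H2-Eb1, the beta chain without an alpha partner in this strain, also rose in cortex. Control values were 5.72, 6.36, 4.03, 8.10 and 2.77 CPM, and GA-Camk2a values ran from 12.2 to 30.6 CPM with a median of 16.2. Again the groups were separate, and mice 16 and 23 were the highest. H2-Eb1 differed by 2.02 ± 0.30 log2 units (SE; edgeR, adjusted p = 6.45e-05). All 4 of these genes had every GA-Camk2a library above every control, a pattern found in 3.5% of the genes tested in cortex.

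**Figure D1:**
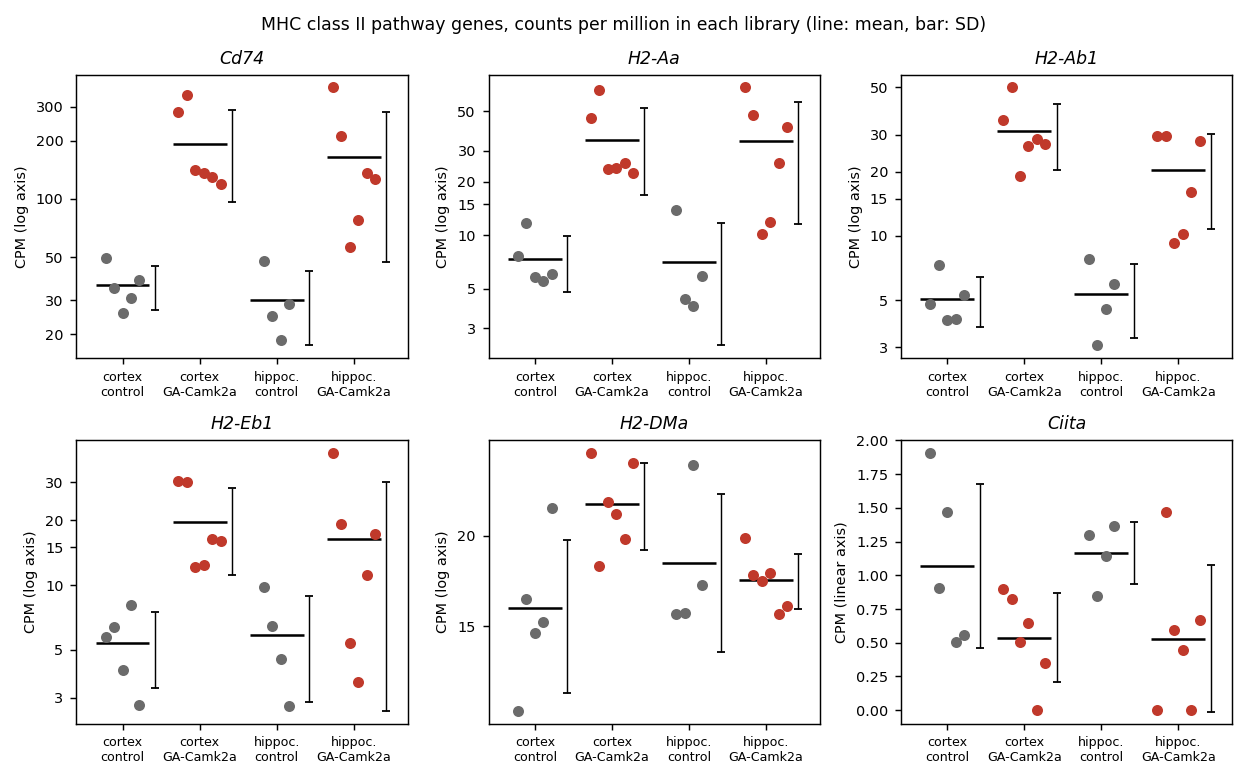
Each panel plots 1 of the 6 genes as CPM in each library (points) of control (grey) and GA-Camk2a (red) mice, with the group mean (line) and SD (bar); the axis is logarithmic except for Ciita. In cortex the red points of Cd74, H2-Aa, H2-Ab1 and H2-Eb1 lie above all grey points, in hippocampus this holds for Cd74 and H2-Ab1, and for H2-DMa and Ciita the groups overlap in both tissues.

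In hippocampus, 3 of the 5 tested genes rose: Cd74, H2-Aa and H2-Ab1 increased between 3.66-fold and 5.36-fold. Over all 14884 genes tested, 4.97% were higher and 5.97% lower. Cd74 was at 47.7, 24.8, 18.8 and 28.7 CPM in control mice 11, 20, 31 and 37, and at 56.1 CPM (mouse 30) to 376 CPM (mouse 16) in GA-Camk2a mice, with a median of 131. The groups did not overlap, although mouse 30 was only slightly above control 11. Cd74 differed by 2.42 ± 0.45 log2 units (SE; edgeR, adjusted p = 0.00288).

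For the chain genes the hippocampal control of mouse 11 was the highest control throughout. H2-Aa was at 14.0 CPM in that library and at 4.42, 5.93 and 3.99 CPM in mice 20, 37 and 31, whereas GA-Camk2a libraries ran from 10.2 to 68.1 CPM with a median of 33.2. The groups overlapped through control 11 on one side and GA-Camk2a 30 and 34 on the other. The genotypes differed by 2.22 ± 0.52 log2 units (SE; edgeR, adjusted p = 0.0126). This call was lost without control 20 (adjusted p = 0.0739) and without control 31 (adjusted p = 0.0526).

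H2-Ab1 was at 7.79, 3.06, 4.56 and 5.93 CPM in the hippocampus of controls 11, 20, 31 and 37. GA-Camk2a hippocampus gave 9.26 to 29.4 CPM with a median of 22.1, without overlap. H2-Ab1 differed by 1.87 ± 0.38 log2 units (SE; edgeR, adjusted p = 0.00479). Both Cd74 and H2-Ab1 had every transgenic library above every control, as had 5.6% of all genes tested in hippocampus.

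H2-Eb1 did not pass the threshold in hippocampus. Its control values were 9.74, 6.45, 4.56 and 2.74 CPM in mice 11, 20, 31 and 37. Its GA-Camk2a values were 41.1, 19.1, 5.38, 3.55, 11.1 and 17.3 CPM in mice 16, 23, 30, 34, 35 and 41. Mice 30 and 34 thus lay within the control range and mouse 16 far above it. The log2 fold change was 1.43 with a 95% interval of 0.22 to 2.63 (edgeR adjusted p = 0.1245). It was 0.63 without mouse 16, and the gene passed without mouse 34 (adjusted p = 0.0379) and without the libraries high in Rorb (log2 fold change 1.14, adjusted p = 0.0302).

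The 2 batches of the labels were also fitted alone. In batch 2 alone, 4 of the 5 genes were higher, with log2 fold changes of 2.72 for Cd74, 3.03 for H2-Aa, 2.71 for H2-Ab1 and 1.33 for H2-Eb1. In batch 1 alone, none of the 5 passed: Cd74 had a log2 fold change of 2.15 (edgeR adjusted p = 0.291), H2-Aa 1.62 (adjusted p = 0.482), H2-Ab1 1.23 (adjusted p = 0.391) and H2-Eb1 1.49 (adjusted p = 0.593). Over all genes, 48 were higher in hippocampus in batch 1 alone and 332 in batch 2 alone, compared with 740 in both together. Few genes of any kind thus passed in batch 1. Batch 1 held the 3 libraries high in Rorb among its 2 controls and 3 GA-Camk2a libraries, and with them left out the differences over both batches of hippocampus were 2.29 for Cd74, 2.40 for H2-Aa and 2.04 for H2-Ab1. Without the marrow-containing library of mouse 41 they were 2.46, 2.16 and 1.77. With the level of Ttr as a covariate they were 2.37, 2.21 and 1.87 in hippocampus, and the 4 genes called in cortex were still called. In cortex the same 4 genes were higher in each batch alone, with log2 fold changes of 2.29 to 2.73 in batch 1 and 1.58 to 2.64 in batch 2. Over all genes, 455 were higher there in batch 1 and 132 in batch 2.

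H2-DMa, the peptide-exchange chaperone, did not pass the threshold in either tissue. In cortex it was at 11.4, 16.3, 14.7, 15.2 and 21.9 CPM in controls 11, 20, 31, 37 and 38, and at 18.2 to 26.1 CPM with a median of 21.9 in GA-Camk2a mice. Control 38 reached into the transgenic range. The log2 fold change was 0.42 with a 95% interval of 0.06 to 0.78 (edgeR adjusted p = 0.121), and it passed without control 38 (log2 fold change 0.65, adjusted p = 0.0245).

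In hippocampus H2-DMa was at 15.6, 15.6, 25.1 and 17.1 CPM in controls 11, 20, 31 and 37 and at 15.6 to 19.9 CPM in GA-Camk2a mice. The transgenic libraries fell inside the control range. Its log2 fold change there was -0.06 with a 95% interval of -0.40 to 0.28 (edgeR adjusted p = 0.872).

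The contrast with Cd74 was tested directly, a test chosen after the values had been seen. The log2 ratio of Cd74 to H2-DMa within a library was 1.17 ± 0.55 (SD, n = 5) in control cortex and 2.99 ± 0.72 (SD, n = 6) in GA-Camk2a cortex (exact two-sided permutation test, p = 0.00433, adjusted over 10 such tests p = 0.0217). In hippocampus it was 0.65 ± 0.83 (SD, n = 4) and 2.96 ± 0.93 (SD, n = 6) (exact two-sided permutation test, p = 0.00952, adjusted p = 0.0238). Both p-values are the smallest that these group sizes allow, and in neither tissue did the groups overlap. With H2-Ab1 in place of Cd74 the ratio was higher by 2.09 log2 units in cortex and 1.91 in hippocampus, with the same p-values. The genes of these ratios were picked for their known values, which neither the p-values nor the adjustment allow for. The ratios thus describe the contrast and add no separate support to it. H2-DMb1, the partner chain of H2-DMa, had 3 to 21 counts per library and was too low for the test within either tissue. It entered the test of the interaction of genotype and tissue, with a log2 value of -0.47 (edgeR adjusted p = 0.806).

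Ratios among the genes that rose were compared in the same way, and none passed after adjustment. There were 2.92 to 6.5 Cd74 counts for each H2-Aa count in control cortex and 5.05 to 6.16 in GA-Camk2a cortex, a difference in means of 0.44 (exact two-sided permutation test, p = 0.5455). In hippocampus the ratio was 3.42 to 5.62 in controls and 3.11 to 6.52 in GA-Camk2a mice (exact two-sided permutation test, p = 0.533). The lowest transgenic value came from the marrow-containing library of mouse 41 and the lowest hippocampal control from mouse 11. H2-Aa counts per H2-Ab1 count were 1.44 ± 0.19 (SD, n = 5) in control cortex and 1.08 ± 0.23 (SD, n = 6) in GA-Camk2a cortex (exact two-sided permutation test, p = 0.0346, adjusted p = 0.0693). In hippocampus the same ratio was 1.28 ± 0.42 (SD, n = 4) and 1.54 ± 0.43 (SD, n = 6) (exact two-sided permutation test, p = 0.362, adjusted p = 0.452).

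Ciita, the transactivator, was near the limit of detection. Summed over libraries it had 10 counts in control cortex, 6 in GA-Camk2a cortex, 17 in control hippocampus and 6 in GA-Camk2a hippocampus. These sums correspond to 0.956, 0.516, 1.13 and 0.459 CPM with exact 95% Poisson intervals of 0.458 to 1.76, 0.190 to 1.124, 0.656 to 1.80 and 0.168 to 0.999, which cover counting error only. No higher level was seen in GA-Camk2a mice. The difference in mean CPM, GA-Camk2a minus control, was -0.53 in cortex (exact two-sided permutation test, p = 0.117, adjusted p = 0.167) and -0.63 in hippocampus (exact two-sided permutation test, p = 0.0667, adjusted p = 0.111), and neither passed the test. A library had 0 to 6 Ciita counts, and 3 counts correspond to between 0.51 and 2.86 CPM, so that small changes were not detectable at this depth.

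**Figure D2:**
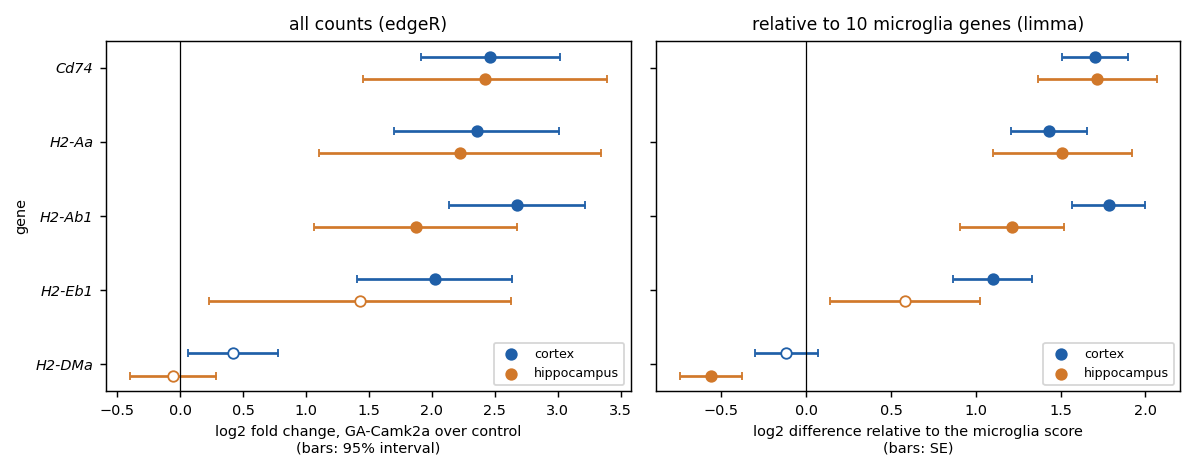
Left, log2 fold change of GA-Camk2a over control for the 5 tested genes in cortex (blue) and hippocampus (orange) with 95% intervals; right, the same difference after subtracting the microglia score of each library, with SE. Filled points have an adjusted p under 0.05: Cd74, H2-Aa and H2-Ab1 are filled on both sides in both tissues, H2-Eb1 only in cortex, and H2-DMa only on the right in hippocampus, below 0.

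Since microglia are the main carriers of class II transcripts in brain parenchyma, the genes were compared with general microglia markers. Of 10 such markers, 7 were higher and 0 lower in GA-Camk2a cortex and 4 were higher and 0 lower in hippocampus, with medians of 0.70 and 0.53 on the log2 scale. The markers did not move together, with log2 fold changes of -0.14 to 0.99 in cortex and -0.16 to 1.07 in hippocampus. In cortex, Itgam, P2ry12 and Tmem119 did not pass, at 0.59, 0.07 and -0.14. The microglia score, the mean log2 CPM of the 10 genes, was 3.82 to 3.91 in control cortex and 4.11 to 4.67 in GA-Camk2a cortex, and 3.82 to 3.97 and 4.14 to 4.57 in hippocampus. The score therefore separated the genotypes as well, by a smaller distance than Cd74 did. Markers that did not rise lower the change in the score, so differences relative to it depend on the markers chosen. A score without those markers was not tested.

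After the score had been subtracted from every gene, Cd74 was still higher in GA-Camk2a mice by 1.70 ± 0.19 (SE) log2 units in cortex and 1.72 ± 0.35 (SE) in hippocampus (limma adjusted p = 1.78e-08 and 0.00101). H2-Aa remained higher by 1.43 and 1.51 and H2-Ab1 by 1.78 and 1.21 (limma adjusted p of at most 0.0064). H2-Eb1 was higher by 1.10 in cortex (limma adjusted p = 0.000191) and by 0.58 in hippocampus (adjusted p = 0.266). On this relative scale only 1.06% of all genes were higher in cortex and 1.49% in hippocampus. H2-DMa was at -0.12 in cortex (limma adjusted p = 0.558) and at -0.56 in hippocampus (adjusted p = 0.0176). The latter says little about H2-DMa alone, because 72.3% of all genes in cortex and 49.7% in hippocampus were lower relative to the rising score, and it did not pass without control 31 (adjusted p = 0.117) or control 37 (adjusted p = 0.0504).

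Markers of other class II-positive cells were followed as well. Of 8 genes of border macrophages, only Pf4 was tested in cortex, where it was higher (log2 fold change 1.08, edgeR adjusted p = 0.0253). In hippocampus 2 of 3 tested were higher, Mrc1 (2.05, adjusted p = 0.00501) and Pf4 (2.36, adjusted p = 0.0449). Pf4 was at 96.7 CPM in the marrow-containing library of mouse 41, at 3.285 to 11.7 CPM in the other 5 GA-Camk2a libraries and at 2.05 to 4.22 CPM in controls. Ms4a7 and Lyve1 were too low for the genotype test within a tissue. Median Ms4a7 in control and GA-Camk2a mice was 0.831 and 4.69 CPM in cortex and 1.33 and 4.49 CPM in hippocampus. Median Lyve1 was 0.506 and 0.675 CPM in cortex and 1.16 and 1.33 CPM in hippocampus. The summed level of the 8 genes was 10.3 to 20.0 CPM in control cortex and 21.9 to 33.1 CPM in GA-Camk2a cortex. In hippocampus the sums were 12.3 to 17.2 and 22.7 to 121 CPM, the highest being mouse 41. The part of border macrophages in the class II difference was not tested.

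Of 8 dendritic cell genes, 1 was tested in cortex, Zbtb46, and did not pass (log2 fold change -0.15, edgeR adjusted p = 0.791). In hippocampus 3 were tested and 1 was higher, Itgax, which activated microglia also express (log2 fold change 3.25, edgeR adjusted p = 3.78e-05). Itgax was too low for the test in cortex, where it was at 0 to 1.91 CPM in control and 4.08 to 9.62 CPM in GA-Camk2a mice. In hippocampus it was at 0.325 to 0.849 and 5.02 to 7.98 CPM and passed the filter through the GA-Camk2a libraries. The log2 fold changes of Flt3 and Zbtb46 in hippocampus were -0.22 and -0.04 (edgeR adjusted p = 0.587 and 0.954). Xcr1 and Clec9a had at most 2 counts in any library and Ccr7 at most 3. Clec10a and Cd209a were too low for the test. Median Clec10a was 0.399 CPM in control and 2.11 CPM in GA-Camk2a hippocampus, and 0.733 and 1.03 CPM in cortex. Median Cd209a was 1.16 and 2.11 CPM in hippocampus and 2.03 and 2.87 CPM in cortex. Summed dendritic cell genes were at 13.6 to 20.5 CPM in control cortex, 16.3 to 26.3 CPM in GA-Camk2a cortex, 16.5 to 22.7 CPM in control hippocampus and 24.5 to 32.4 CPM in GA-Camk2a hippocampus. The B cell markers Ms4a1 and Igkc had at most 4 counts in any library, and the highest value of Ms4a1 in hippocampus, 2.00 CPM, was in mouse 41. Cd79a and Cd79b were highest in the marrow-containing hippocampus library of mouse 41, with 10 and 12 counts (6.67 and 8.01 CPM). Summed B cell genes were at 34.4 to 63.0 CPM in control and 26.2 to 59.1 CPM in GA-Camk2a cortex, and at 13.6 to 38.7 and 23.9 to 133 CPM in hippocampus. Ighm made up most of these sums, at 32.4 to 63.0 CPM in control and 23.9 to 56.3 CPM in GA-Camk2a cortex. In hippocampus Ighm was at 12.4 to 35.7 and 20.3 to 111 CPM. Ighm did not pass in cortex (log2 fold change -0.42, edgeR adjusted p = 0.094) or hippocampus (0.84, adjusted p = 0.206).

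Monocyte genes, of which 0 of 2 passed in cortex and 0 of 3 in hippocampus, summed to 15.4 to 28.4 CPM in control cortex, 20.1 to 36.0 CPM in GA-Camk2a cortex, 20.8 to 25.6 CPM in control hippocampus and 22.7 to 571 CPM in GA-Camk2a hippocampus. The upper end was again mouse 41, in which S100a8 reached 270 CPM. T cell genes summed to 14.7 to 41.4 CPM in control cortex and 22.2 to 29.7 CPM in GA-Camk2a cortex. Trbc2, which made up most of this sum, was the only one tested there and was lower (log2 fold change -0.69, edgeR adjusted p = 0.0257). The other T cell genes had few counts and higher means in GA-Camk2a than in control cortex. In control and GA-Camk2a cortex, mean CPM was 0.24 and 0.84 for Cd3d, 0.63 and 0.96 for Cd3e and 0.77 and 1.11 for Cd3g. It was 0.06 and 0.19 for Cd8a, 1.63 and 2.82 for Trac and 1.03 and 1.63 for Trbc1. In hippocampus none was tested, and the sums were 5.70 to 6.45 and 6.61 to 13.3 CPM. Whether infiltrating cells contributed to the class II transcripts was not tested.

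The rest of the pathway was described with lists of genes for processing, transcription and T cell contact. Of 12 further genes of class II presentation in the table, 6 were tested in each tissue and 4 were higher in each, the lysosomal enzymes Ctss, Ifi30, Ctsl and Lgmn. Ctss, cathepsin S, which trims the invariant chain in antigen-presenting cells, rose by 1.86 ± 0.14 (SE) log2 units in cortex (edgeR adjusted p = 1.04e-08) and by 1.74 ± 0.16 in hippocampus (adjusted p = 1.04e-05). Ifi30, the lysosomal thiol reductase, rose by 1.19 and 1.55, Ctsl by 0.82 and 0.92 and Lgmn, the asparagine endopeptidase, by 0.69 and 0.65.

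March1 and March8, ubiquitin ligases that remove class II from the surface, did not pass in either tissue, with log2 fold changes between -0.25 and 0.19. The median log2 fold change of the 6 tested genes was 0.75 in cortex and 0.79 in hippocampus. H2-DMb1, H2-DMb2, H2-Oa, H2-Ob, H2-Eb2 and H2-Ea-ps were too low for the genotype test within a tissue. H2-Ea-ps, the pseudogene left of H2-Ea in this strain, had 1 count in each GA-Camk2a group and 0 in the controls.

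Among 15 genes of class II transcription and interferon-gamma signalling, 3 were higher in each tissue, among them Irf8 and Ifngr1. Irf8, a transcription factor of microglia and other myeloid cells, rose by 1.68 ± 0.21 (SE) in cortex and 1.49 ± 0.17 in hippocampus (edgeR adjusted p = 9.93e-06 and 5.36e-05). Ifngr1, a chain of the interferon-gamma receptor, rose by 0.57 and 0.53, whereas the other chain Ifngr2 fell by 0.35 in hippocampus (edgeR adjusted p = 0.0299). Of the general factors that bind class II promoters, Nfya, Nfyb, Nfyc and Rfxap were tested in both tissues and Rfxank in hippocampus. None of these passed, with values between -0.15 and 0.29. Creb1 was at 25.4 to 33.3 CPM in control and 24.1 to 52.1 CPM in GA-Camk2a cortex. In hippocampus Creb1 was at 35.4 to 37.4 and 38.5 to 50.7 CPM. Rfx5, with at most 14 counts in a library, was too low for the genotype test within a tissue. Its mean in control and GA-Camk2a mice was 2.23 and 1.66 CPM in cortex and 2.21 and 3.62 CPM in hippocampus. The list as a whole had a median of 0.02 over 11 tested genes in cortex and 0.27 over 13 in hippocampus.

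Of 8 genes for co-stimulation and T cell partners, all 3 tested in cortex were higher and 2 of 4 in hippocampus. These counts depend on the filter and do not describe the whole list. In control cortex Cd86 and Icosl had at most 2.72 and 4.43 CPM, and they passed the filter there through the GA-Camk2a libraries. Cd4 of the same list, with a median of 8.10 CPM in control and 1.26 CPM in GA-Camk2a cortex, did not pass it. Cd86, a co-stimulatory ligand on antigen-presenting cells, rose by 1.97 ± 0.34 (SE) in cortex and 1.68 ± 0.32 in hippocampus (edgeR adjusted p = 0.000389 and 0.00345). Lag3, an inhibitory receptor that binds class II, rose by 1.26 and 1.50. Icosl, the ligand of the co-stimulatory receptor ICOS, rose by 1.22 in cortex and was at 0.53 in hippocampus (adjusted p = 0.106).

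**Figure D3:**
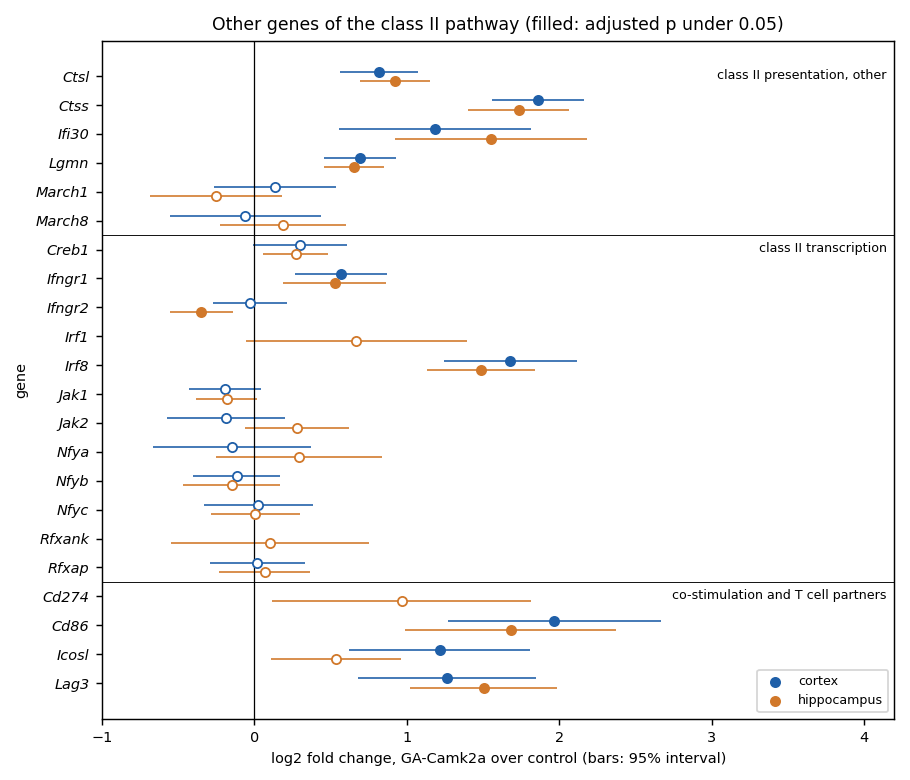
Log2 fold change of GA-Camk2a over control with 95% intervals in cortex (blue) and hippocampus (orange) for tested genes of 3 lists, separated by lines; filled points have an adjusted p under 0.05. Ctss, Irf8, Cd86 and Lag3 lie between 1.26 and 1.97 in both tissues, and the NF-Y and RFX genes lie between -0.15 and 0.29.

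The promoters of the class II genes share short elements, the X box and the Y box, that RFX and NF-Y bind and on which CIITA acts. RefSeq promoters (build GRCm38.p6) were searched for 3 of the 6 genes, H2-Aa, H2-Eb1 and H2-DMa, the last with 2 annotated starts. Cd74 was left out of the search beforehand, and no promoter was held for H2-Ab1 and Ciita. The 250 bases before each start were searched on both strands for ATTGG (the Y box, CCAAT on the other strand), ACNGATG (the X box core) and TGACGTCA (a cyclic AMP response element, added after the H2-Aa sequence had been read). H2-Aa was called in both tissues, H2-Eb1 in cortex and H2-DMa in neither. The sequences are shown 5′ to 3′ in the direction of the gene, with matches in capitals. The first is H2-Aa, on the minus strand of chr17:34287824-34288073, the second H2-Eb1, on the plus strand of chr17:34305617-34305866, and the last pair are the starts of H2-DMa, on the plus strand of chr17:34122582-34122831 and chr17:34125268-34125517.
H2-Aa: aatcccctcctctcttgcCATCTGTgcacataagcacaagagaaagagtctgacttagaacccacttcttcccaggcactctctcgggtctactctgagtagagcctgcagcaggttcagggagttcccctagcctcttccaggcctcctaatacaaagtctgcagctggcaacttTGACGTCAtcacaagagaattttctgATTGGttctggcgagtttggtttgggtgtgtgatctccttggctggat
H2-Eb1: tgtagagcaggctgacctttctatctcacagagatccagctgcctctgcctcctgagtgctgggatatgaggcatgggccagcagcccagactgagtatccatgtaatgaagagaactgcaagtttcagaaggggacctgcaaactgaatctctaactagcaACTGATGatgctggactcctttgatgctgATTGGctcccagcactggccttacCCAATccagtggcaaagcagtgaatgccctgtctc
H2-DMa, upstream start: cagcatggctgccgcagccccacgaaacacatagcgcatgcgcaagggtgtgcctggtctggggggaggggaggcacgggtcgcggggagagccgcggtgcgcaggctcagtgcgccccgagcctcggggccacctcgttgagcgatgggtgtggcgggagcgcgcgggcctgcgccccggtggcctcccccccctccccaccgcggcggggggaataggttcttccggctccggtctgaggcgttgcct
H2-DMa, downstream start: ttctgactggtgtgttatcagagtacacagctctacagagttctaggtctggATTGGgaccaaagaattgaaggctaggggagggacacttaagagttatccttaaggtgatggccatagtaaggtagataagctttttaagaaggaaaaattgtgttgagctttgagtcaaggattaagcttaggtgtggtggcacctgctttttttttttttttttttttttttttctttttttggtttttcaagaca

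Counted back from the start, H2-Aa held ATTGG at -48 to -44 and TGACGTCA at -74 to -67, and ACNGATG only on the other strand at -232 to -226. H2-Eb1 held ACNGATG at -88 to -82 and ATTGG at -59 to -55, with a second, inverted ATTGG at -35 to -31. The upstream start of H2-DMa held none of the 3 motifs, and the downstream start held ATTGG at -198 to -194. Of all 32851 promoters of the same length, 33.8% held ATTGG, 8.31% held ACNGATG and 1.55% held TGACGTCA. The pair in the order ACNGATG then ATTGG on the same strand within 60 bases, as in H2-Eb1, was found in 117 promoters, 0.356% of all. Other forms of the X box were not searched for, so an X box in other letters, in H2-Aa or H2-DMa, would have been missed. Whether TGACGTCA in H2-Aa forms part of an X box was not examined. These matches describe letters in a window and were not related to binding in these data.

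The levels of the 5 tested genes in hippocampus and cortex were also compared within each genotype. In controls none differed (0 of 5, compared with 8.69% of genes higher and 7.6% lower in hippocampus), with log2 differences, hippocampus minus cortex, between -0.21 for Cd74 and 0.15 for H2-Eb1. The 95% intervals of H2-Aa (-0.69 to 0.76) and H2-Eb1 (-0.63 to 0.93) leave room for differences in either direction.

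In GA-Camk2a mice, 2 of 5 were lower in hippocampus than in cortex, where 15.9% of all genes were lower and 17.3% higher. H2-Ab1 was lower by a log2 difference of -0.81 ± 0.28 (SE; edgeR adjusted p = 0.0346) and H2-DMa by -0.41 ± 0.14 (adjusted p = 0.0276). With each mouse as a replicate block they were at -0.74 (adjusted p = 0.00629) and -0.43 (adjusted p = 0.0306), in a paired fit of the tissues of the same animals. Neither passed after counts were thinned to the smallest library (adjusted p = 0.133 and 0.0924), and leaving out single libraries gave between 0 and 4 calls. None was left without cortex 16, hippocampus 30 or hippocampus 34, 1 was left without cortex 23, cortex 41 or hippocampus 35, and 4 were called without hippocampus 16.

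Whether the genotype effect differed between the tissues was tested as an interaction over all 21 libraries. None of the 5 genes passed, as 0.4% of all genes did. The difference of the effects, hippocampus minus cortex, was -0.07 for Cd74 (95% interval -1.27 to 1.13), -0.15 for H2-Aa, -0.82 for H2-Ab1 (-1.89 to 0.24; edgeR adjusted p = 0.628), -0.55 for H2-Eb1 and -0.50 for H2-DMa (unadjusted p = 0.0397, adjusted p = 0.463). H2-Eb1, called in cortex and not in hippocampus, was thus not shown to differ between them (95% interval -2.06 to 0.95).

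**Figure D4:**
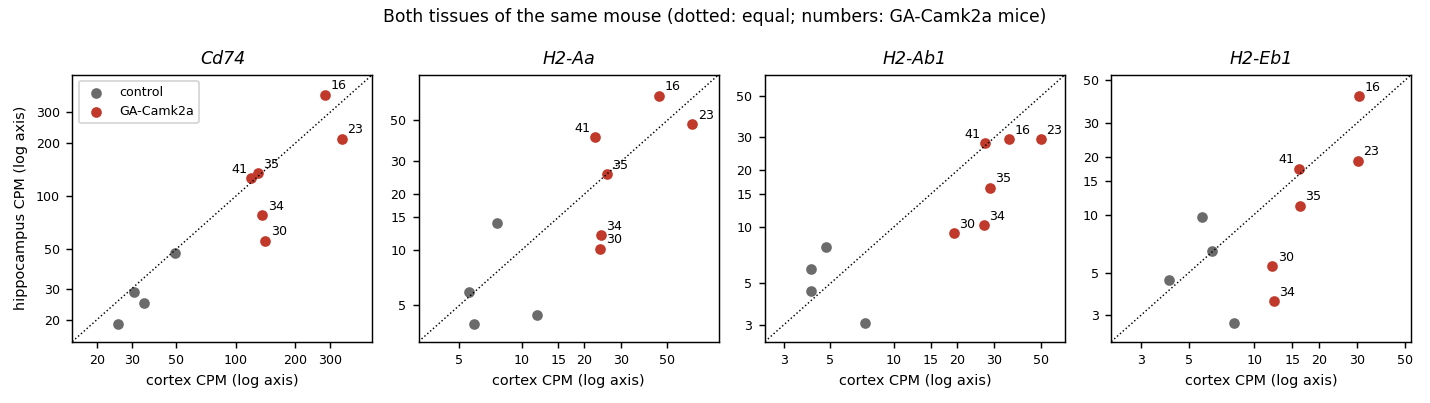
CPM in cortex (x axis) and hippocampus (y axis) of the same mouse for 4 genes, on logarithmic axes, with control mice in grey, GA-Camk2a mice in red with their numbers, and a dotted line of equal values. Mice 16 and 23 are high in both tissues, and mice 30 and 34 lie below the line in every panel.

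Within the 6 GA-Camk2a mice the levels in both tissues were set against each other as log2 CPM. For H2-Eb1, Pearson's r was 0.88 (exact permutation p = 0.0306, adjusted over 5 genes p = 0.153) and Spearman's rho 0.89 (exact permutation p = 0.0333, adjusted p = 0.0833), and r was 0.94 without mice 16 and 23, the farthest from the median in cortex. For H2-Ab1, r was 0.74 (exact permutation p = 0.0764, adjusted p = 0.184), rho 0.89 (exact permutation p = 0.0333, adjusted p = 0.0833) and r 0.72 without mice 23 and 30. For Cd74, r was 0.73 (exact permutation p = 0.126, adjusted p = 0.184) and rho 0.54 (exact permutation p = 0.297, adjusted p = 0.371), and r turned to -0.66 without mice 16 and 23, on which the relation rests.

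H2-Aa gave an r of 0.66 (exact permutation p = 0.147, adjusted p = 0.184) and a rho of 0.54 (exact permutation p = 0.297, adjusted p = 0.371), with an r of 0.09 without mice 16 and 23. H2-DMa gave an r of 0.30 (exact permutation p = 0.560, adjusted p = 0.560) and a rho of 0.14 (exact permutation p = 0.803, adjusted p = 0.803), with an r of 0.98 in the 4 mice left without 23 and 41. None of the relations held after adjustment. Each batch held too few mice for a value of its own, and the mouse, its litter and the time to its endpoint cannot be told apart.

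Finally, genes were ranked by how closely they followed Cd74 over the 21 libraries, after each library's log2 CPM had been set relative to the mean of its tissue and genotype. Among 11218 other genes, the 5 most alike were Apod (Pearson's r = 0.88), encoding a secreted lipocalin, Ctss (0.87), Spp1 (0.85), encoding osteopontin, Gm14295 (0.81) and C1qc (0.80), a chain of complement C1q. The members H2-Aa (0.91), H2-Eb1 (0.81) and H2-Ab1 (0.80) were as close to Cd74 as these, whereas H2-DMa was at -0.09 and the 10 microglia markers lay between -0.37 and 0.49. These values describe libraries that share tissue, batch and depth, and cortex and hippocampus of most mice enter together. In cortex alone, Apod was at 0.89 and Ctss at 0.88, and in hippocampus alone at 0.88 and 0.89.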

How the data were processed

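Per the labels, total RNA from cortex and hippocampus of 11 mice was sequenced with prime-seq in 2 batches. The control numbers of cortex and hippocampus follow the labels, and the study's description gives them the other way round. The labels name GRCm39 (mm39), FastQC 0.11.8, cutadapt 1.12, STAR and DESeq2 1.44. The authors deposited whole-number counts per gene, not normalized. The processing method names zUMIs, and whether molecular identifiers or reads were counted, the annotation release and the use of strand are not given in the sources used here. Near-identical genes such as Gm14295 are therefore uncertain, and so are genes that overlap others. The GFP row was left out of library sizes and tests, and 0 columns were unused. Symbols were matched by Ensembl number for 43308 of 64361 genes.

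The genes and lists were chosen with earlier results of these data known. Named genes were the 6 members, list genes past the threshold in both tissues or with the largest changes (at most 4 for each list and tissue), and the 5 non-members most like Cd74. Other list genes were named after their values had been seen. A few list genes are counted in their lists but not reported by name here.

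Tests used edgeR 4.0.16 in R 4.3.3 (TMM, filterByExpr with a minimum count of 10, quasi-likelihood F-test, batch as a covariate), with Benjamini-Hochberg adjustment over all genes tested and a threshold of 0.05. A gene low in controls could pass the filter through the GA-Camk2a libraries alone, so counts of tested genes that were higher depend on it. The interaction used all 21 libraries. Differences relative to microglia used limma 3.58.1 on log2 CPM (prior count 2), and DESeq2 1.42.0 served as an alternative. Ratios and Ciita were tested with exact permutation tests (scipy 1.17.1). CPM values in the text are relative to all gene counts of a library. The code was tested on simulated data. Other alternatives were no batch term, no filter, thinning to the smallest library, each batch alone and each library left out. Alternatives without the libraries that stand apart (hippocampus high in Rorb, and for comparisons of tissues in GA-Camk2a mice also that of mouse 41) and with Ttr as a covariate, and the tests of ratios, were chosen after seeing the data.

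Total counts ranged from 1048201 to 5888102 with a median of 1975173, and the Poisson intervals of pooled Ciita counts cover counting error only, whereas the intervals of log2 fold changes include the spread between libraries. In 46 pairs of replicates, chi-square over its degrees of freedom was 2.10 to 15.1, so no library was a duplicate of another. The mouse number pairs the tissues because both came from the same animal. The correlation of their deviations from the group means ranged from -0.23 to 0.28 over 14751 genes. The genotypes share no mouse numbers, so no pairing between genotypes was possible.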

Additional observations from a re-analysis of the deposited data

Results flagged for a closer look

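Among the 24 sets of 6 genes in 4 groups, 1 library lay outside its group by Dixon's criterion, where chance gives about 1 in 20. H2-DMa was at 25.1 CPM in the hippocampus of control 31, and the nearest other control was at 17.1 CPM. Without that library the log2 fold change of H2-DMa in hippocampus was 0.064 in place of -0.06.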

How the results depend on the processing

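Cd74, H2-Aa, H2-Ab1 and H2-Eb1 were higher in cortex under all alternatives run, and 4 or 5 members were called there. In hippocampus the number called was 3 of 5, 0 in batch 1 alone and 2 to 4 when single libraries were left out. H2-Eb1 was called as well in 4 alternatives: without mouse 34, in batch 2 alone, without the libraries that stand apart and without the filter. Ttr as a covariate changed no member's call. With the mouse as a replicate block, 0 members were called in controls, 2 in GA-Camk2a mice and 0 in the interaction, as without it, and the block changed no member's call. In GA-Camk2a mice the tissue comparison called 2 members, but 1 with DESeq2, 1 without the batch term, 1 without the filter, 0 after thinning and 0 to 4 when single libraries were left out.

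Values near 0 changed sign. For H2-DMa in hippocampus these were 0.12 in batch 1 alone and -0.15 to 0.064 without single libraries, and relative to microglia in cortex -0.20 to 0.018. For tissue in controls, H2-Aa was at -0.084 with DESeq2, -0.017 without the batch term, -0.30 with the replicate block and -0.51 without the libraries that stand apart (-0.51 to 0.33 without single libraries). H2-Ab1 was at -0.10 without the libraries that stand apart (-0.10 to 0.31), H2-Eb1 at -0.20 with the block and -0.41 without those libraries (-0.41 to 0.45), and H2-DMa at -0.073 to 0.24. For tissue in GA-Camk2a mice, H2-Aa was at 0.075 after thinning (-0.86 to 0.17). In the interaction, Cd74 was at 0.017 with DESeq2 (-0.64 to 0.22) and H2-Aa at 0.075 with the block (-0.68 to 0.39).

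Over all genes, 829 were higher in cortex, 534 after thinning, 455 in batch 1 and 132 in batch 2. In hippocampus 740 were higher, 419 after thinning, 48 in batch 1, 332 in batch 2 and 449 to 811 without single libraries. Between tissues 2351 genes were called in controls (1395 thinned) and 4350 in GA-Camk2a mice (2682 without the libraries that stand apart). The interaction called 59 genes (1479 at an unadjusted p under 0.05), 127 with DESeq2, 36 without the batch term, 159 without the filter, 35 thinned, 10 without the libraries that stand apart and 22 to 66 without single libraries. Fewer libraries or counts entered the batch, thinned and left-out fits, and other causes were not tested. Depth limited the statements on Ciita.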

Other observations

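CD4 is the receptor of helper T cells that binds class II. Cd4 was at 4.03 to 10.5 CPM in control cortex, from 9 to 29 counts. It was at 0 to 3.50 CPM in GA-Camk2a cortex, from 0 to 6 counts, where 2 libraries had no count. In hippocampus it was at 0.85 to 2.28 and 0.56 to 2.67 CPM. Trbc2, which encodes a constant region of the T cell receptor, was at 11.1 to 39.2 CPM in control cortex, 13.4 to 23.9 CPM in GA-Camk2a cortex, which overlapped, and at most 4.46 CPM in any hippocampus library. Cd3d, Cd3e and Cd3g, which T cells need for the receptor, had at most 5 counts in any library. Cd4 did not pass the filter for the genotype comparison in cortex. Between tissues of control mice it was lower in hippocampus by a log2 difference of -2.72 ± 0.39 (SE; edgeR adjusted p = 0.000129), and the interaction of genotype and tissue was 2.44 with a 95% interval of 0.83 to 4.04 (unadjusted p = 0.00437, edgeR adjusted p = 0.222), which did not pass. Both genes were singled out after their values had been seen.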
